A study of Mus musculus with 6 samples.

Results

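The interferon response genes are described here in the ileum, the last segment of the small intestine, of male mice with or without bile duct ligation. The 37 members are 22 genes known mainly as targets of type I interferon and 15 known mainly as targets of interferon-gamma, chosen by gene symbol. Of the 37, 28 had a probe set annotated to that gene alone that passed the filter on low signal, 16 in the type I list and 12 in the interferon-gamma list. A further 4 (Ifit2, Mx2, Cxcl9 and Cxcl10) had only probe sets below the filter. Isg15 and Gbp4 lay only on probe sets annotated to several genes, and Ifi44, Oas1g and Xaf1 had no probe set annotated to them, so these 5 have no values here. The array table held 22690 probe sets, of which 13575 were tested.

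Expression was measured on 6 Affymetrix arrays in 3 groups of 2. All mice were wild type, on a mixed C57BL/6:129Sv background, and 8 to 10 months old. The Sham_Vehicle group had sham surgery and vehicle, in which the common bile duct was mobilised and not tied. The BDL_Vehicle group had the duct ligated and received vehicle, and the BDL_GW4064 group had it ligated and received the FXR ligand GW4064, which switches on this nuclear receptor for bile acids, at 100 mg/kg/day. Every group was gavaged over the 2 days leading up to the operation and the 5 that followed, so all mice shared the gavage, the vehicle and the incision. No GW4064 group without ligation was analysed here. Nothing in the labels tells if a group's 2 arrays stand for different animals, for pools or for one extract, and the tests therefore reflect array-to-array spread alone, which may be technical. The values are array signals, that is, background-corrected probe brightness on a linear scale. In whole tissue, fewer cells of a type and less RNA per cell cannot be told apart. Fold changes are on the log2(signal + 4) scale, which understates changes at low signal. A gene was called at a Benjamini-Hochberg adjusted p under 0.05 over all 13575 probe sets, and signals are given for replicates 1 and 2 in that order.

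The arrays had been scaled to one trimmed mean of 200.1. BDL_GW4064 replicate 2 stood apart in smooth muscle genes, whose summed signal was 16970 there against 1807 to 2538 in the other 5 arrays. The 10 markers of ileal enterocytes, the absorptive cells that mark this segment, summed to between 29786 and 40550 in all 6 arrays. A control probe set for the 5′ end of 18S ribosomal RNA separated 3 arrays from the other 3, reading 67.3 to 88.7 in BDL_Vehicle replicate 1 and the pair of Sham_Vehicle arrays and 8.6 to 13.3 in the rest. The ratio of the 3′ to the 5′ actin control probe set was 1.73 in Sham_Vehicle replicate 2 and 1.09 to 1.22 in the other 5 arrays. Sham_Vehicle replicate 2 was the lowest array for 14 of the 28 members, 8 of them interferon-gamma members. No such share was taken over all probe sets. The part of this ratio in the comparisons with Sham_Vehicle was not tested.

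Type I interferons signal through the receptor IFNAR and the complex ISGF3, which contains STAT2 and IRF9 and binds interferon-stimulated response elements. Interferon-gamma signals through its own receptor and induces the transcription factor IRF1. Interferon-lambda, made at mucosal surfaces, uses the same ISGF3 complex as type I interferon. Many target genes answer to both classes, so the lists name the main inducer and not the only one.

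RefSeq (GRCm38.p6) gave a promoter window, 250 bases before and 50 after the start, for 28 of the 37 members. The 250 bases before the start are shown for 4 members whose values differ in pattern across the arrays. Ifit1 (chr19:34640639-34640888, plus strand) and Ifit3 (chr19:34583279-34583528, plus strand) were high in a single array, Gbp3 (chr3:142559794-142560043, plus strand) was high in both BDL_GW4064 arrays, and Irf1 (chr11:53769764-53770013, plus strand) was nearly level in all 6. All bases are in lower case, as no stretch is singled out.
Ifit1: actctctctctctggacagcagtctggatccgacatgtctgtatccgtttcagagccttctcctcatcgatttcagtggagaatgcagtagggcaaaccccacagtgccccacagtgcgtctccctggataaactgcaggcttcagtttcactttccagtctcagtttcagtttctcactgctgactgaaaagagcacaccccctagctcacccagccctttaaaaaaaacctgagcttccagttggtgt
Ifit3: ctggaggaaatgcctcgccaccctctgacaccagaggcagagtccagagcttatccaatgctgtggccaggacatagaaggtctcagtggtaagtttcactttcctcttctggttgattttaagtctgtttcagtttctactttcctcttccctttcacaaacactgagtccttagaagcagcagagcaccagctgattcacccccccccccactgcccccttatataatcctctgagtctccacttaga
Gbp3: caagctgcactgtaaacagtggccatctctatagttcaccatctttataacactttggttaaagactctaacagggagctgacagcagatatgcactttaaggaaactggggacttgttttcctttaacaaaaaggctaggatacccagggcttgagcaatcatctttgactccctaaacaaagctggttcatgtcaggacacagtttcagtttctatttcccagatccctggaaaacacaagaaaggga
Irf1: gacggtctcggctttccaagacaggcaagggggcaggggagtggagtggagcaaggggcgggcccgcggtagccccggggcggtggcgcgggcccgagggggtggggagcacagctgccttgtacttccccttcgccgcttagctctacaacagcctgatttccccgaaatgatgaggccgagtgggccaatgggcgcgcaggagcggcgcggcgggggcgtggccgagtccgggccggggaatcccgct

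The share of g and c in these bases was 50.4% for Ifit1, 49.6% for Ifit3, 42.4% for Gbp3 and 71.2% for Irf1. Irf1 was the highest of the 28 members with a window, whose median was 50%, beside 52% over the 27025 genes in the RefSeq table. The medians were 51% over 16 type I members and 47.6% over 12 interferon-gamma members. Response elements were not searched for in these windows.

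Across the members, 1 array gave most of the difference. All 16 type I members had their highest signal in BDL_GW4064 replicate 1, as did 7 of the 12 interferon-gamma members, while 17.1% of all probe sets tested were highest there. Oas2, among the 16, passed the filter only through that array, so its place there is no support. The other 15 type I members were highest there as well. Replicate 2 of BDL_GW4064 was highest for 4 members (17.3% of all probe sets), Sham_Vehicle replicate 1 for 1 (16.2%), and Sham_Vehicle replicate 2 (19.6%), BDL_Vehicle replicate 1 (16.3%) and BDL_Vehicle replicate 2 (13.5%) for 0. In BDL_GW4064 replicate 2, 12 of the 16 type I members lay within the range of the 4 vehicle arrays and 4 lay below it. In both BDL_GW4064 arrays 3 members, Gbp2, Gbp3 and by a narrow margin Irf1, were above all 4 vehicle arrays. No share over all probe sets was taken for these positions against the 4 vehicle arrays. The counts therefore do not tell if the members differ from probe sets in general. No member passed the adjusted threshold in any of the 3 comparisons between groups.

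The transcription factors of the type I list were highest in BDL_GW4064 replicate 1. Stat2, a subunit of ISGF3, gave signals of 165.3 and 117.3 in Sham_Vehicle, 179.3 and 247 in BDL_Vehicle, and 341.9 and 178.9 in BDL_GW4064. A second Stat2 probe set gave 160.0 in BDL_GW4064 replicate 1 and 103.4 to 111.5 in the other 5 arrays. Irf9, the DNA-binding subunit of ISGF3, gave 159.1 and 174.8 in Sham_Vehicle, 204.6 and 180.3 in BDL_Vehicle, and 317.3 and 179.1 in BDL_GW4064. The 2 subunits thus exceeded their level in BDL_GW4064 replicate 2 by 1.89-fold and 1.75-fold. Irf7, which drives transcription of the interferon-alpha genes and is itself an interferon target, gave 630.9 and 599.7 in Sham_Vehicle, 492.5 and 475.6 in BDL_Vehicle, and 1334.3 and 506.8 in BDL_GW4064. Irf7 was 2.62-fold higher in BDL_GW4064 replicate 1 than in replicate 2, and its BDL_Vehicle arrays were both below its Sham_Vehicle arrays.

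The IFIT proteins bind foreign RNA and block its translation. Ifit1 gave signals of 443.1 and 320.7 in Sham_Vehicle, 391.1 and 407.8 in BDL_Vehicle, and 1071.8 and 341.8 in BDL_GW4064. Ifit3 gave 111.5 and 80 in Sham_Vehicle, 77.9 and 63.2 in BDL_Vehicle, and 259.7 and 72.1 in BDL_GW4064. Their signals in BDL_GW4064 replicate 1 were 3.11-fold and 3.47-fold those in replicate 2, where both genes were within the range of the vehicle arrays. Ifit2, below the filter, gave 48.4 in BDL_GW4064 replicate 1 and 15.6 to 27.0 in the other 5 arrays.

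The oligoadenylate synthetases make the second messenger that activates RNase L, and Oas2 had the highest ratio between the 2 BDL_GW4064 arrays of any member tested. Oas2 gave 42.3 and 36.4 in Sham_Vehicle, 29.9 and 34 in BDL_Vehicle, and 252.1 and 29.8 in BDL_GW4064, an excess of replicate 1 over replicate 2 of at least 6.23-fold, with replicate 2 set to the filter bound of 37.1 because it lay below it. Oas2 passed the filter on low signal only because of BDL_GW4064 replicate 1, and no other member tested was lost when any single array was left out. Oas1a gave 638.3 and 552.8 in Sham_Vehicle, 498.3 and 520 in BDL_Vehicle, and 1372.3 and 469 in BDL_GW4064, a 2.91-fold excess. The OAS-like genes were also highest in BDL_GW4064 replicate 1. Oasl1, which in mice restrains the translation of Irf7 mRNA, gave 359.3 and 289.7 in Sham_Vehicle, 324.7 and 436.7 in BDL_Vehicle, and 812.9 and 302.8 in BDL_GW4064. Oasl2 gave 259.5 and 154.3 in Sham_Vehicle, 217.8 and 138.5 in BDL_Vehicle, and 528.8 and 207.6 in BDL_GW4064. These were excesses of 2.66-fold and 2.52-fold, and both genes in BDL_GW4064 replicate 2 lay within the range of the vehicle arrays.

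The other antiviral effectors showed the same array on top. Rsad2 (viperin, which makes a chain-terminating nucleotide) gave 142.4 and 136.2 in Sham_Vehicle, 199.3 and 118.8 in BDL_Vehicle, and 418.7 and 166.9 in BDL_GW4064. Mx1, which belongs to the dynamin-like GTPases, gave 57.5 and 47.1 in Sham_Vehicle, 56.5 and 47.8 in BDL_Vehicle, and 100.4 and 49.4 in BDL_GW4064. The excess of replicate 1 over replicate 2 in BDL_GW4064 was 2.47-fold for Rsad2, with 1.84-fold and 2.38-fold on its other probe sets (which differed in the sign of the ligation difference), and 1.96-fold for Mx1. Mx2, its paralog, was below the filter, with 57.4 in BDL_GW4064 replicate 1 and 3.4 to 12.9 elsewhere. Ddx60, a helicase of RNA sensing, gave 204.3 and 177.8 in Sham_Vehicle, 220.6 and 163.9 in BDL_Vehicle, and 397.7 and 170.4 in BDL_GW4064. Bst2 (tetherin, which holds budding virions at the cell surface) gave 69.2 and 69.7 in Sham_Vehicle, 73.8 and 77.9 in BDL_Vehicle, and 113 and 60.5 in BDL_GW4064. Ddx60 was 2.30-fold and Bst2 1.81-fold higher in BDL_GW4064 replicate 1 than in replicate 2.

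Usp18, a protease that removes ISG15 and dampens signalling at IFNAR, differed in the same single array. Its signals were 77.6 and 75.8 in Sham_Vehicle, 88.3 and 76.2 in BDL_Vehicle, and 405.1 and 81 in BDL_GW4064, so that 5 arrays lay between 75.8 and 88.3 and the sixth was 4.81-fold above its replicate. Rtp4, an interferon-induced chaperone of G protein-coupled receptors, gave 389 and 302.1 in Sham_Vehicle, 256.9 and 250.4 in BDL_Vehicle, and 818.4 and 239.7 in BDL_GW4064, a 3.37-fold excess. Rtp4 in BDL_GW4064 replicate 2 was the lowest of the 6 arrays. A second Rtp4 probe set, below the filter, gave 48.0 in BDL_GW4064 replicate 1 and 7.6 in replicate 2, and the sign of its difference after ligation was opposite to that of the brighter one.

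Zbp1, a sensor of left-handed nucleic acid that can trigger necroptosis, was the type I member with the smallest gap between the BDL_GW4064 arrays. It gave 106.9 and 74.1 in Sham_Vehicle, 202 and 132.5 in BDL_Vehicle, and 256.8 and 170.2 in BDL_GW4064. Both BDL_Vehicle arrays and both BDL_GW4064 arrays lay above both Sham_Vehicle arrays. A second Zbp1 probe set gave 40.7 and 22.4 in Sham_Vehicle, 96.8 and 54.3 in BDL_Vehicle, and 176.3 and 87.7 in BDL_GW4064, the same separation.

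**Figure D1:**
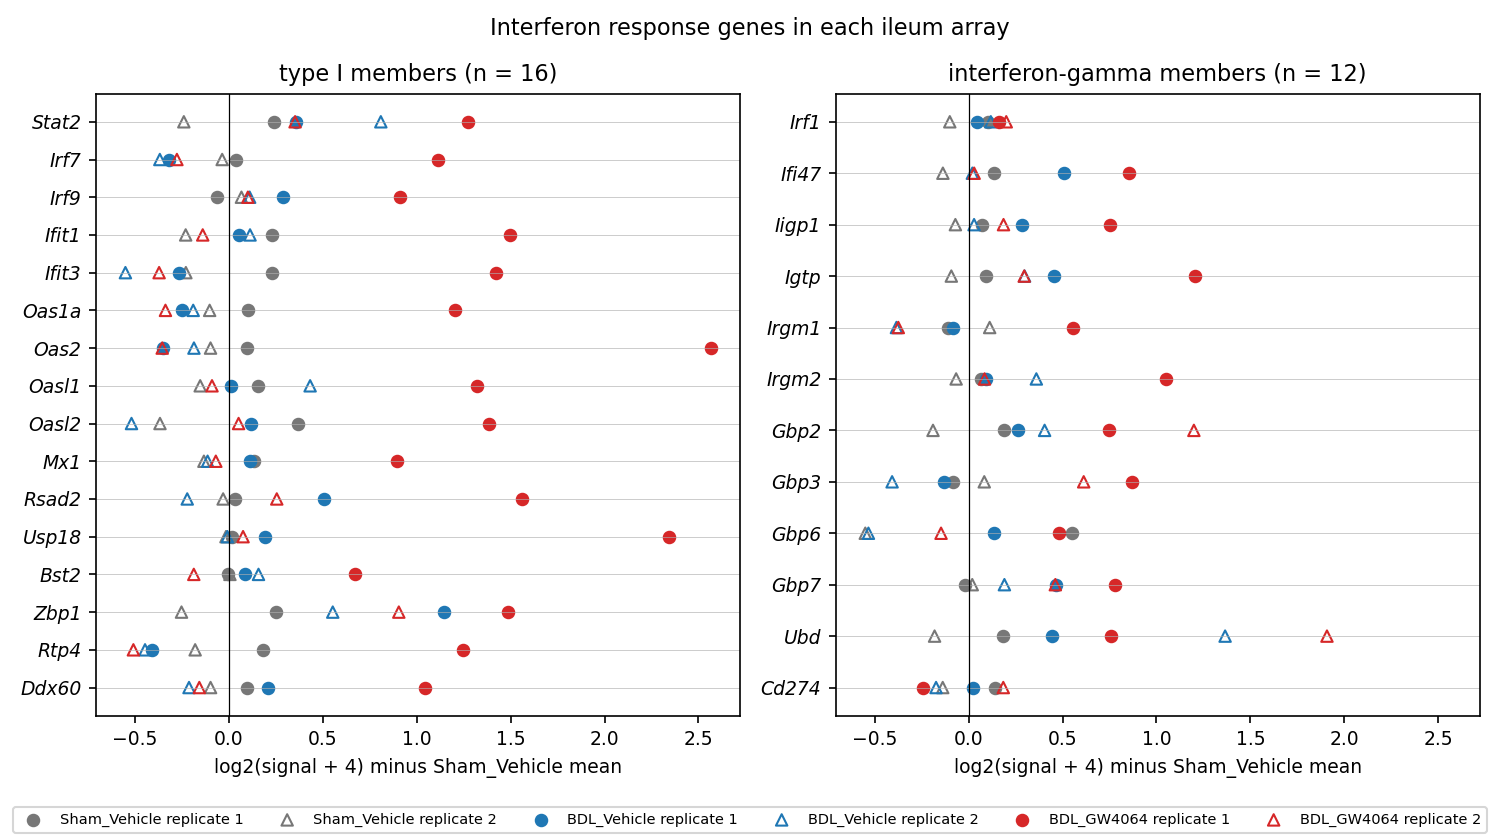
Signal of each tested member in each of the 6 arrays, as log2(signal + 4) minus the Sham_Vehicle mean of that gene, with the 16 type I members on the left and the 12 interferon-gamma members on the right. Filled red circles (BDL_GW4064 replicate 1) lie to the right of every other array for all 16 type I members, while open red triangles (replicate 2) lie among the vehicle arrays for most of them.

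The interferon-gamma members varied more in which array was highest, which was BDL_GW4064 replicate 1 for 7, replicate 2 for 4 and Sham_Vehicle replicate 1 for Gbp6. Irf1, the transcription factor that interferon-gamma induces, gave 1037.2 and 901.6 in Sham_Vehicle, 997.8 and 1049.7 in BDL_Vehicle, and 1083.2 and 1111.5 in BDL_GW4064. Irf1 was nearly level, with the 2 BDL_GW4064 arrays within 1.03-fold of each other.

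The immunity-related GTPases, which act on the vacuoles of intracellular pathogens, were highest in BDL_GW4064 replicate 1 in all 5 cases. Igtp (Irgm3) gave 143.2 and 125.5 in Sham_Vehicle, 184.9 and 165.7 in BDL_Vehicle, and 314.8 and 165.5 in BDL_GW4064. Irgm1 gave 100.4 and 117.9 in Sham_Vehicle, 102.3 and 82.4 in BDL_Vehicle, and 161.6 and 83 in BDL_GW4064. Irgm2 gave 135.1 and 122.8 in Sham_Vehicle, 137.8 and 166.5 in BDL_Vehicle, and 270.9 and 136.8 in BDL_GW4064. These 3 were 1.88-fold to 1.95-fold higher in BDL_GW4064 replicate 1 than in replicate 2, and each lay in replicate 2 within the range of the vehicle arrays. Ifi47 gave 387.6 and 319.7 in Sham_Vehicle, 503 and 356.9 in BDL_Vehicle, and 638.9 and 359.3 in BDL_GW4064, a ratio of 1.77-fold. Iigp1 gave 79.4 and 71.6 in Sham_Vehicle, 92.7 and 77 in BDL_Vehicle, and 129.9 and 86.3 in BDL_GW4064, a ratio of 1.48-fold. In replicate 2 both of these lay within the range of the BDL_Vehicle arrays.

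The guanylate-binding proteins, GTPases that attack pathogen membranes and vacuoles, split among themselves. Gbp3 gave 57.5 and 65 in Sham_Vehicle, 55.4 and 45.1 in BDL_Vehicle, and 115.2 and 95.6 in BDL_GW4064, with both BDL_GW4064 arrays above all 4 vehicle arrays. Gbp2 gave 42.2 and 31.5 in Sham_Vehicle, 44.5 and 49.6 in BDL_Vehicle, and 64.1 and 89 in BDL_GW4064, again with no overlap, and here replicate 2 was the higher by 1.37-fold. A second Gbp2 probe set gave 32.6 and 33.0 in Sham_Vehicle, 48.1 and 40.6 in BDL_Vehicle, and 70.4 and 93.0 in BDL_GW4064, the same order. Gbp7 gave 67.1 and 69 in Sham_Vehicle, 95.3 and 78.2 in BDL_Vehicle, and 119.7 and 95.2 in BDL_GW4064, with replicate 2 just under the higher BDL_Vehicle array, and on its second probe set replicate 2 was the lowest of the 6 arrays at 36.7, so that the difference from BDL_Vehicle took the opposite sign. Gbp6 gave 69.8 and 30.4 in Sham_Vehicle, 51.4 and 30.8 in BDL_Vehicle, and 66.2 and 41.5 in BDL_GW4064, with no separation of groups and a gap of at least 1.79-fold between the Sham_Vehicle arrays, the lower one being under the filter bound.

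Ubd, which encodes the ubiquitin-like modifier FAT10, was the interferon-gamma member highest in BDL_GW4064 replicate 2 by the widest margin. Ubd gave 52.6 and 40 in Sham_Vehicle, 64 and 124.6 in BDL_Vehicle, and 80.3 and 183.3 in BDL_GW4064. Replicate 2 exceeded replicate 1 by 2.22-fold in BDL_GW4064 and by 1.89-fold in BDL_Vehicle, and all 4 ligated arrays lay above both sham arrays. Cd274 (PD-L1, a ligand that restrains T cells) gave 60.8 and 49.5 in Sham_Vehicle, 55.8 and 48.2 in BDL_Vehicle, and 45.7 and 62.9 in BDL_GW4064, with overlap between all 3 groups. Cxcl9 and Cxcl10, chemokines that attract T cells, were below the filter, with signals of 12.3 to 55.8 and 18.9 to 41.2. Cxcl9 was above both sham arrays in all 4 ligated arrays.

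The gap between the 2 BDL_GW4064 arrays was wide for type I members and not for probe sets in general. On the log2 scale the median difference, replicate 1 minus replicate 2, over the 16 type I members was 1.36 in BDL_GW4064 (1.33 without Oas2), 0.24 in Sham_Vehicle and 0.11 in BDL_Vehicle. Over the 12 interferon-gamma members the medians were 0.44, 0.19 and 0.23 in that order. Over all 13575 probe sets the medians lay between -0.02 and 0.03. Replicate 1 was the higher array for 23 of the 28 members in Sham_Vehicle, 18 in BDL_Vehicle and 24 in BDL_GW4064. Of all probe sets, 7206, 7335 and 6408 were higher in replicate 1 of these groups, in the same order. In BDL_GW4064 the central 95% of all probe sets ran from -0.80 to 0.66, and 15 of the 16 type I members lay above that range, Zbp1 (0.58) being the exception. Oas2, kept by the filter only through replicate 1, is among the 15. Of the interferon-gamma members, Ifi47 (0.82), Igtp (0.91), Irgm1 (0.93) and Irgm2 (0.97) also lay above it, and Ubd (-1.15) lay below it.

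A 2-fold limit, chosen after the values were seen, divided the lists more sharply. It falls just above the interferon-gamma members Irgm2 (1.95-fold), Irgm1 (1.90-fold) and Igtp (1.88-fold), and their count past it rose under other scalings, as given below. Among type I members, 11 of 16 were at least 2-fold higher in BDL_GW4064 replicate 1 than in replicate 2 (10 of 15 without Oas2), against 0.818% of all probe sets (111). Among interferon-gamma members 0 of 12 were, and 1 (Ubd) was at least 2-fold higher in replicate 2, against 1.36% of all probe sets. Of the 111 probe sets past 2-fold in replicate 1, 12 belonged to 11 members (10.8% of these probe sets). Of the 185 probe sets past 2-fold in replicate 2, 1 belonged to a member. All 10 smooth muscle genes tested were past 2-fold in replicate 2, a count of genes and not of probe sets. In Sham_Vehicle, by signals as measured, Gbp6 alone of the 28 members was at least 2-fold higher in replicate 1, against 1.65% of all probe sets, and 0 were in replicate 2, against 0.575%. In BDL_Vehicle 0 members were at least 2-fold higher in replicate 1, against 1.35% of all probe sets, and 0 in replicate 2, against 0.508%.

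**Figure D2:**
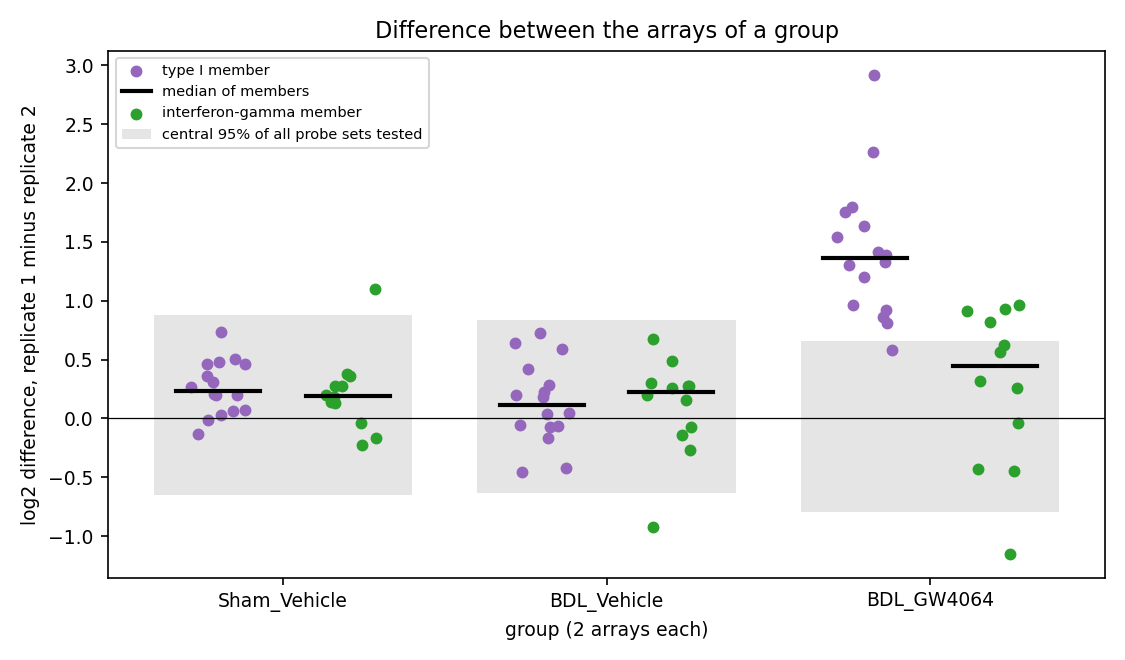
Difference between the 2 arrays of each group, log2(signal + 4) of replicate 1 minus replicate 2, for the 16 type I members (purple) and the 12 interferon-gamma members (green), with black bars at the medians and grey bands over the central 95% of all 13575 probe sets. In BDL_GW4064 the type I members centre on 1.36, above the band, and the interferon-gamma members spread from below -1 to just under 1.

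Whether ligation alone moved the members was asked by setting BDL_Vehicle against Sham_Vehicle. The type I list was evenly divided, with 8 of 16 members higher and 8 lower in value and a median log2 fold change of 0.04. The interferon-gamma list had 8 of 12 higher in value and a median of 0.19. Over all 13575 probe sets, 6561 were higher in value and the median was -0.01. Zbp1 had the lowest p of the 28, with mean signals of 167 ± 49.1 after ligation and 90.5 ± 23.2 after sham surgery (SD, n = 2 each), a log2 fold change of 0.85 (SE 0.29, limma adjusted p = 0.751). Ubd followed at 0.91 (SE 0.43, limma adjusted p = 0.751), with means of 94.3 ± 42.9 and 46.3 ± 8.91 (SD, n = 2 each).

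By limma, 0 of the 28 members were called for ligation, where 4 of 13575 probe sets were (0.0295%). At an unadjusted p under 0.05, 1 member was higher (Zbp1), against 3.39% of all probe sets, and 0 were lower, against 2.98%. Both ligated arrays lay above both sham arrays for 9 members, against 18.2% of all probe sets, and below them for 6, against 18.7%. The 6 below were Irf7, Oas1a, Ifit3, Oas2, Rtp4 and Gbp3.

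The effect of GW4064 in ligated mice was taken from BDL_GW4064 against BDL_Vehicle. All 28 members, Oas2 included, had a higher mean in BDL_GW4064, against 6503 of all 13575 probe sets. Without BDL_GW4064 replicate 1, 5 of the 16 type I and 8 of the 12 interferon-gamma members were higher in value. The medians were 0.62 over the type I list (0.60 without Oas2) and 0.33 over the interferon-gamma list, beside -0.01 over all probe sets. The groups separated for few members. Gbp3 had mean signals of 105 ± 13.9 and 50.2 ± 7.28 (SD, n = 2 each), a log2 fold change of 1.01 (SE 0.22, limma adjusted p = 0.285). Gbp2 had means of 76.5 ± 17.6 and 47.0 ± 3.61, a log2 fold change of 0.64 (SE 0.27, limma adjusted p = 0.65).

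The type I members with high fold changes had wide errors in this comparison. Oas2, kept by the filter only through BDL_GW4064 replicate 1, is given by its signals alone, and its replicate 2 signal of 29.8 was under both BDL_Vehicle signals of 29.9 and 34. Usp18 had means of 243 ± 229 and 82.2 ± 8.56 (SD, n = 2 each) and a log2 fold change of 1.12 (SE 0.60, limma adjusted p = 0.773). Irf7 was the only type I member without overlap, at 0.76 (SE 0.37, limma adjusted p = 0.744), and its BDL_GW4064 replicate 2 signal of 506.8 was close to the BDL_Vehicle signals of 492.5 and 475.6.

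By limma, 0 of the 28 members were called for GW4064 in ligated mice, where 7 of 13575 probe sets were (0.0516%). Higher at an unadjusted p under 0.05 were 2 (Gbp3 and Gbp2), against 4.43% of all probe sets, and 0 were lower, against 3.06%. Both BDL_GW4064 arrays lay above both BDL_Vehicle arrays for 4 members, against 17.4% of all probe sets, and below them for 0, against 18.1%. The 4 were Irf7, Irf1, Gbp2 and Gbp3.

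The type I fold changes rested on BDL_GW4064 replicate 1. Without that array the median over the 16 type I members was -0.08, with 5 higher and 11 lower in value, and over the 12 interferon-gamma members it was 0.09. Without replicate 2 the medians were 1.42 and 0.59, and Usp18 (log2 fold change 2.25, adjusted p = 0.04) and Irf7 (1.46, adjusted p = 0.0486) passed the threshold in limma, beside 18 of all 13575 probe sets (0.133%), where the lone BDL_GW4064 array is assumed to vary like the other groups. Oas2 passed it too, but the filter kept Oas2 only through this same array, so its call is no support. With the 18S split of the arrays as a term in the model, the medians were 0.65 and 0.44 and 0 members were called. Only the BDL_Vehicle pair spans that split, so this fit amounts to BDL_GW4064 against BDL_Vehicle replicate 2 alone. It cannot adjust for the split. Gbp3 kept a log2 fold change of 0.88 to 1.15 and Gbp2 of 0.42 to 0.87 when any single array was left out.

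**Figure D3:**
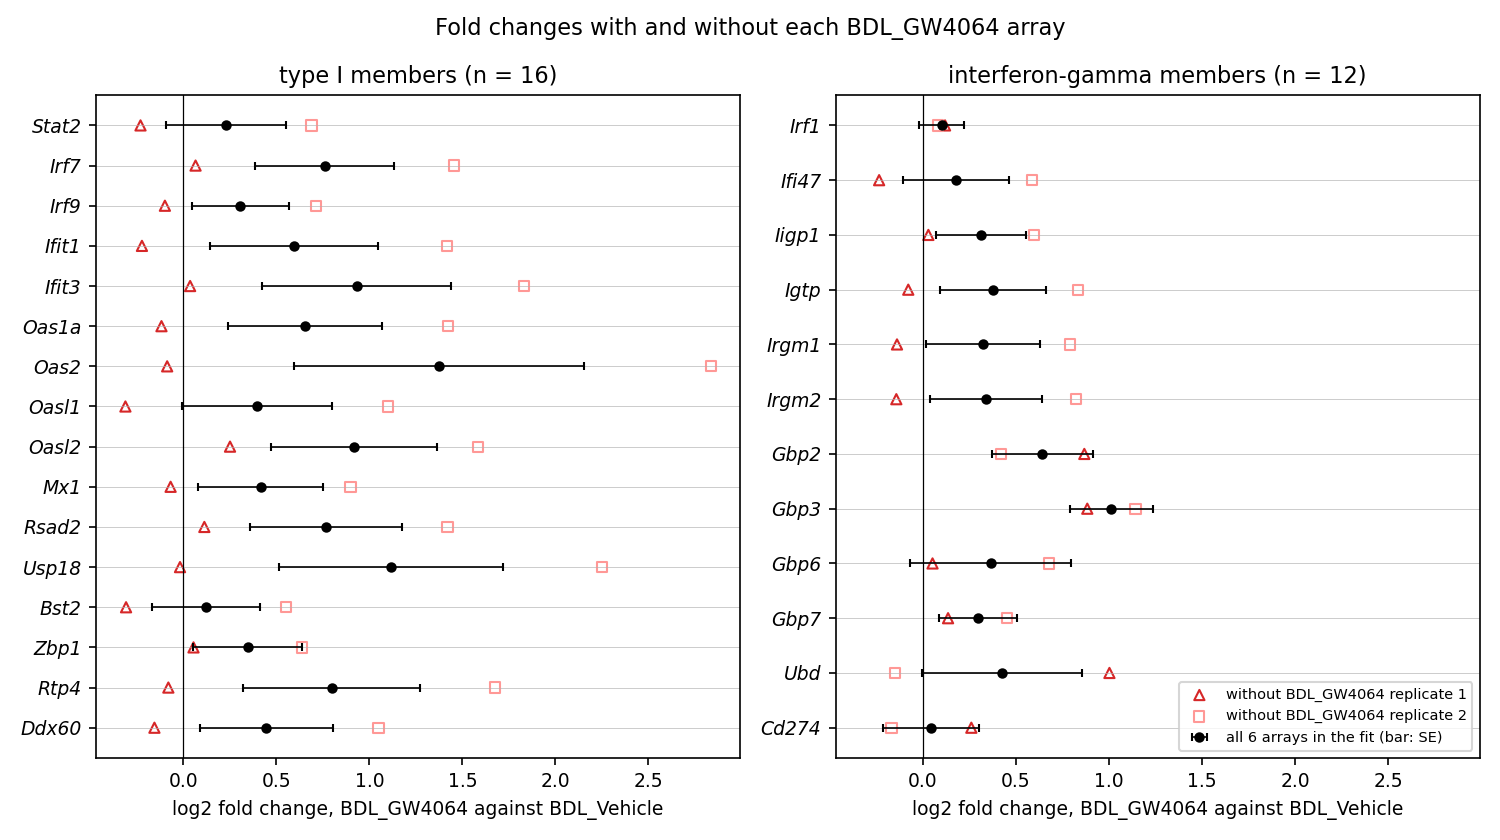
Log2 fold change of BDL_GW4064 against BDL_Vehicle for each tested member, with all 6 arrays in the fit (black, bars are SE) and without BDL_GW4064 replicate 1 (triangles) or replicate 2 (squares). Type I members move from near 0 without replicate 1 to a median of 1.42 without replicate 2, whereas Gbp2 and Gbp3 stay above 0 in both.

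BDL_GW4064 was also set against Sham_Vehicle, which takes ligation and GW4064 together and shares its arrays with the other comparisons. Here 27 of 28 members, Oas2 included, were higher in value, Cd274 being the exception, against 6818 of all 13575 probe sets. The medians were 0.57 over the type I list (0.52 without Oas2) and 0.52 over the interferon-gamma list, beside 0.00 over all probe sets. Without Sham_Vehicle replicate 2, the array with the highest actin ratio, the list medians were 0.41 and 0.45. Zbp1 had means of 214 ± 61.2 and 90.5 ± 23.2 (SD, n = 2 each), a log2 fold change of 1.20 (SE 0.29, limma adjusted p = 0.176). Gbp2 was at 0.97 (SE 0.27, limma adjusted p = 0.202) and its second probe set was at least 2.07-fold higher, both sham arrays being under the filter bound. Ubd was at 1.33 (SE 0.43, limma adjusted p = 0.229). Gbp3, Gbp7, Igtp and Stat2 were also at an unadjusted p under 0.05, with log2 fold changes of 0.74, 0.62, 0.75 and 0.81. Without BDL_GW4064 replicate 1 the log2 fold change was 0.30 for Igtp and 0.35 for Stat2, and without replicate 2 it was 1.21 and 1.27.

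By limma, 0 members were called, where 5 of 13575 probe sets were (0.0368%). The 7 members higher at an unadjusted p under 0.05 stood against 7.31% of all probe sets, and 0 were lower, against 8.67%. Both BDL_GW4064 arrays were above both sham arrays for 13 members, 5 in the type I list and 8 in the interferon-gamma list, against 23.8% of all probe sets, and below them for 0, against 26.3%. Without BDL_GW4064 replicate 1 the type I median was -0.12 and the interferon-gamma median 0.19. Without replicate 2 they were 1.30 and 0.76, and Usp18 (log2 fold change 2.34, limma adjusted p = 0.0379) passed the threshold, beside 9 of all 13575 probe sets (0.0663%). The count of members higher at an unadjusted p under 0.05 was 3 without replicate 1, against 5.66% of all probe sets, and 22 without replicate 2, against 5.07%.

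The interferons themselves gave little signal. Of 14 interferon genes listed, 8 had a probe set and 0 passed the filter, with signals of 0.8 to 28.3. Ifng gave 2.7 and 0.8 in Sham_Vehicle, 13 and 5.8 in BDL_Vehicle, and 1.0 and 1.2 in BDL_GW4064. No interferon probe set was above the filter bound in the array where the type I members were high.

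The receptor subunits had no array that stood apart as BDL_GW4064 replicate 1 did for the type I members. Ifnar1, a subunit of the type I receptor, gave 127.3 and 153.4 in Sham_Vehicle, 155.4 and 159.6 in BDL_Vehicle, and 174.3 and 138.5 in BDL_GW4064. Ifnar2, its partner, gave 48.0 and 86.5, 62.6 and 94.3, and 97.6 and 102.6 in that order. Ifngr1, which binds interferon-gamma, ranged from 587.7 to 719.5 over the 6 arrays and Ifngr2 from 867.7 to 1038.3. Il10rb, a subunit of the interferon-lambda receptor, ranged from 797.6 to 962.2. Socs1, which inhibits the receptor kinases, was below the filter at 1.9 to 27.3.

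Over all lists of other pathway genes 65 were tested, namely 8 receptors and kinases, 7 transcription factors, 8 inhibitors, 8 sensors and adaptors and 34 other interferon targets. By limma 0 of the 65 were called in any comparison. In BDL_GW4064 against BDL_Vehicle 53 of the 65 were higher in value, against 6503 of all 13575 probe sets, with a median log2 fold change of 0.15. Of the 65, 36 were highest in BDL_GW4064 replicate 1, including 23 of the 34 other targets and 5 of the 8 sensors, and 6 were at least 2-fold higher there than in replicate 2. Those 6, chosen after their values were seen, were Oas3 (3.71-fold), Dhx58 (at least 3.36-fold), Trim30a (3.02-fold), Ifi27l2a (2.79-fold), Lgals3bp (2.02-fold) and Slfn2 (2.01-fold), each induced by interferon.

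**Figure D4:**
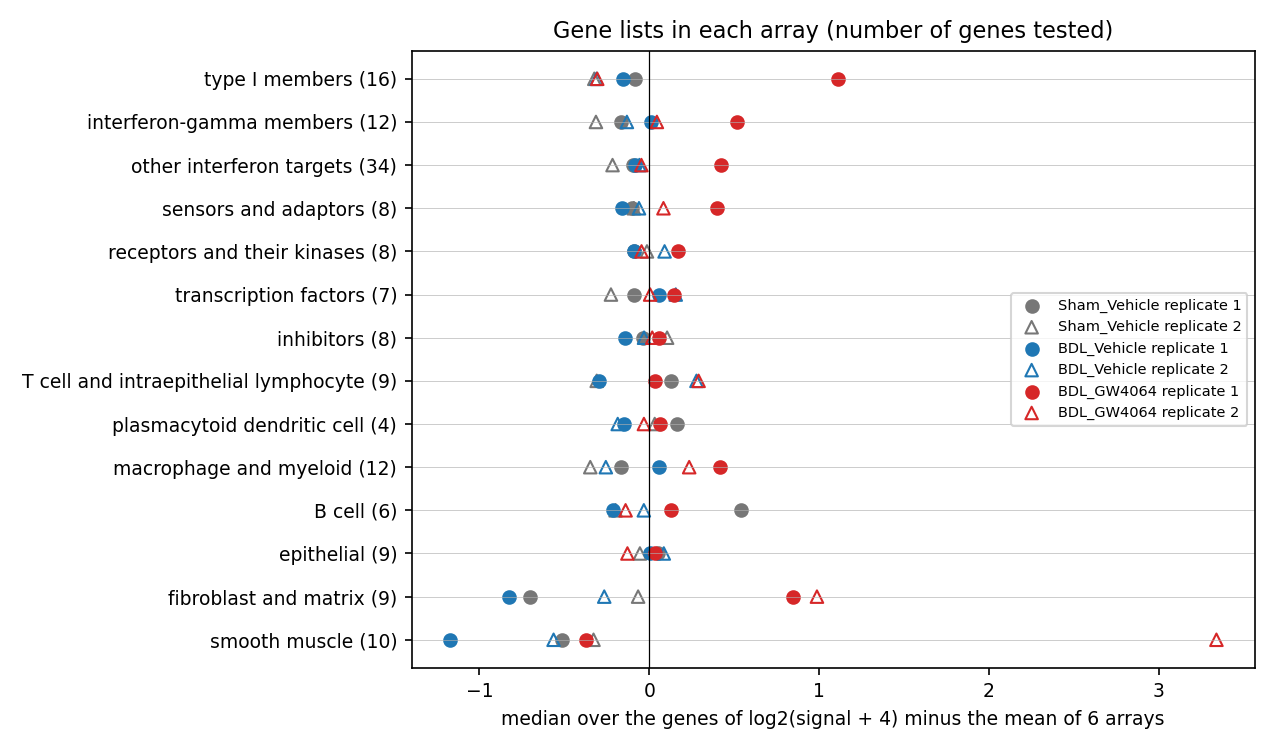
Median over the tested genes of each list of log2(signal + 4) minus the gene's mean over the 6 arrays, with one symbol per array and the number of genes in brackets. BDL_GW4064 replicate 1 stands at 1.11 for the type I members and 0.52 for the interferon-gamma members, and replicate 2 stands apart in the smooth muscle list.

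The marker lists of cell types also differed between arrays. The 12 macrophage and myeloid genes tested summed to 3286 in BDL_GW4064 replicate 1, 2960 in replicate 2 and 1755 to 2705 in the vehicle arrays. Of these 12, 7 were highest in BDL_GW4064 replicate 1, as the type I members were, and their part in the type I values was not tested. The 9 fibroblast genes summed to 3533 and 4443 in BDL_GW4064 and to 1158 to 1883 in the vehicle arrays, and 5 endothelial genes to 436 and 434 against 236 to 306. These 3 lists were thus higher in both BDL_GW4064 arrays, as Gbp2 and Gbp3 were, and their part in the values of those genes was not tested. The 9 T cell and intraepithelial lymphocyte genes summed to 1113 and 788 in Sham_Vehicle, 809 and 1218 in BDL_Vehicle, and 1138 and 1379 in BDL_GW4064. Within each ligated group this sum was higher in replicate 2, as Ubd was, and its part in the Ubd values was not tested.

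The 4 genes tested from the list for plasmacytoid dendritic cells, strong producers of type I interferon, are also expressed outside them, and most of their sum came from Klk1. They summed to 1214 in BDL_GW4064 replicate 1 and to 1048 to 1519 in the other 5 arrays, so by this sum that array lay inside the range of the rest. By gene, 2 of the 4 were highest of the 6 arrays in BDL_GW4064 replicate 1, and 3 of the 4 were higher there than in replicate 2. The 6 B cell genes summed to 604 there and to 467 to 806 elsewhere. The 9 epithelial genes summed to 27929 there and to 25352 to 28993 elsewhere. The 10 ileal enterocyte genes summed to 40550 there, the highest of the 6 arrays, and to 29786 to 39081 elsewhere. Of the 10, 5 were highest in that array. All 6 B cell genes, all 9 epithelial genes and 9 of the 10 enterocyte genes were higher there than in BDL_GW4064 replicate 2. The part of these lists in the type I values was not tested. The 10 smooth muscle genes, which summed to 16970 in BDL_GW4064 replicate 2, were at 2309 in replicate 1, inside the range of the vehicle arrays. The part of the smooth muscle excess in the gap between the 2 arrays was not tested.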

How the data were processed

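Ileum RNA from 6 samples, 5 µg each, was labelled with biotin and hybridised to Affymetrix mouse arrays, per the labels' protocols. The authors deposited a linear intensity per probe set, named as MAS5 signal in the submitters' processing notes, its version being not given in the sources used here. After trimming 2% at each end the mean was 200.1 in every array. Arrays have no count depth, and 2 arrays per group limit the precision. Of 22690 probe sets, 64 controls were left out, and the rest comprised 20380 with a single annotated gene, 691 with more than one and 1555 without any. Symbols of the 32 members alone on a probe set matched RefSeq by gene identifier, and 0 differed. Signals were analysed as log2(signal + 4), 4 being their 10th percentile. The lowest 40% by mean were left out, a bound at a signal of 37.1, which also served as the floor for dim groups. limma 3.58.1 (R 4.3.3) fitted 1 mean per group with a trended variance prior over all 6 arrays (3 residual and 4.71 prior degrees of freedom). Benjamini-Hochberg adjustment covered 13575 probe sets, at 0.05. A gene was represented by its brightest probe set. Every member with a probe set of its own was named. Other genes were given values only if called or if Ifng, a receptor subunit or Socs1, apart from those marked as chosen later. The members, lists and tests were chosen with earlier results of these data known. On simulated data for BDL_GW4064 against BDL_Vehicle (13575 probe sets), 63.8% of 2-fold and 98.8% of 4-fold changes were recovered and 6.24% of calls were false. The simulation changed 200 probe sets drawn at random and used normal noise, with no array set apart from its replicate. It therefore does not give the share recovered among these members. Over all probe sets tested, deviations of same-numbered arrays correlated at 0.04, 0.09 and -0.12. These values cannot exclude an effect of replicate number on some genes. Alternatives covered scaling, pseudocount, filter, prior, probe set choice, a replicate block, the 18S split and leaving out each array.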

Additional observations from a re-analysis of the deposited data

How the results depend on the processing

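With all 6 arrays 0 members were called in any comparison. Leaving out each array in turn gave 0 to 0 members called for BDL_Vehicle against Sham_Vehicle, 0 to 3 for BDL_GW4064 against BDL_Vehicle (Oas2 among the 3) and 0 to 1 for BDL_GW4064 against Sham_Vehicle. In the same order, the type I medians ran from -0.15 to 0.12, -0.083 to 1.42 and -0.12 to 1.30, the interferon-gamma medians from 0.07 to 0.30, 0.085 to 0.59 and 0.19 to 0.76, and the calls over all probe sets from 1 to 3, 2 to 48 and 0 to 29. Those calls, 4, 7 and 5 in the same order, became 1, 2 and 0 without the variance trend and 2, 4 and 0 with a replicate block. Without the filter they were 2 for ligation and 4 for BDL_GW4064 against BDL_Vehicle, which a robust prior raised to 12 and the 18S split as a term lowered to 2. BDL_GW4064 against Sham_Vehicle gave 3 under median centring and 0 with the 18S split as a term, which put its interferon-gamma median at 0.78. That term is estimated from the BDL_Vehicle pair alone, as the arrays of each other group fell on the same side of the split. It cannot adjust BDL_GW4064 against Sham_Vehicle for the split. With the replicate block 0 members were called in any comparison. A crossed block, added after seeing the data because BDL_Vehicle and BDL_GW4064 deviated oppositely (-0.12), called 37 probe sets and 0 members. The count of interferon-gamma members at least 2-fold higher in BDL_GW4064 replicate 1 than in replicate 2 was 2 under quantile normalisation, 3 under median centring and 1 without the filter, and 3 were highest in that array under a filter at 60%. The count of type I members highest there was 16 of 16, Oas2 included, under each scaling and pseudocount. With 2 arrays per group the test recovered 63.8% of simulated 2-fold changes in BDL_GW4064 against BDL_Vehicle, and probe sets near the bound were limited by background. That simulation held no array set apart from its replicate, so the share does not carry over to the members.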

Other observations

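BDL_GW4064 replicate 1 also stood above replicate 2 in genes outside the interferon lists. Ighm, the immunoglobulin M heavy chain, was 10.9-fold higher, an immunoglobulin kappa variable gene, Igkv14-111, at least 6.67-fold, and Hspa1b, a heat-inducible chaperone, 5.68-fold. Replicate 1 was also the higher array in the vehicle groups for 2 of these genes. For Hspa1b the ratio was 6.41-fold in BDL_Vehicle and 1.27-fold in Sham_Vehicle. For Igkv14-111 it was at least 2.87-fold in BDL_Vehicle and 2.09-fold in Sham_Vehicle. In the other direction H2-T3, a nonclassical class I gene known from intestinal epithelium, was at least 8.08-fold higher in replicate 2, and the muscle gene Des at least 20.5-fold, with the lower array set to the filter bound in each "at least" value. Des was also higher in replicate 2 of BDL_Vehicle. These genes were chosen after their values were seen, and each ratio compares 2 arrays with no test.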
